A study of Mus musculus with 12 samples.

Results

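The genes described here encode the subunits, activators, inhibitor and assembly factors of the proteasome in CD69+ regulatory T cells (Treg) from spleen, thrombus and vein wall of mice with a venous thrombus. Members were defined by a rule on names, chosen with earlier results of these data known. The rule took every gene whose symbol began with Psm, a letter from a to g and a number, which had exons and was listed in all 3 layouts of the deposited files. This gave 50 genes of the 20725 that could be joined over the files. Of these, 48 passed the filter on low counts, with 11618 genes in all. The members Psma8, an alpha subunit known from testis, and Psmb11, a catalytic subunit known from the thymic cortex, did not pass. One of the 48, Psmc3ip, fits the name pattern but encodes a recombination factor and no proteasome protein.

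The proteasome degrades proteins that carry ubiquitin chains. Its 20S core is a barrel of alpha rings and beta rings, and the catalytic sites lie on the beta subunits Psmb5, Psmb6 and Psmb7. Interferons and the T cell lineage itself favour the inducible subunits Psmb8, Psmb9 and Psmb10, which replace Psmb5, Psmb6 and Psmb7 in that order and form the immunoproteasome. The 19S cap recognises and unfolds substrates with its ATPases (Psmc genes) and further subunits (Psmd genes). Psme1 and Psme2 form PA28, an interferon-induced activator that can cap the core in place of 19S. In T cells the proteasome also degrades inhibitors of NF-kB after receptor signalling.

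Live CD45+ CD4+ cells with Foxp3-driven EGFP and the activation marker CD69 had been sorted from DEREG mice, C57BL/6 animals with the transgene Tg(Foxp3-DTR/EGFP)23.2Spar/Mmjax, in which Foxp3 regulatory sequence drives EGFP together with the receptor for diphtheria toxin. The inferior vena cava had been ligated in all mice, with cells collected 14 days later from spleen, clot and vessel wall, so the spleen samples too came from thrombotic mice and no group is untreated. The labels used here give neither an age nor whether a library holds cells of 1 mouse or of several, so the spread that enters the p-values may be technical in part. There were 4 libraries per tissue with 9719151 to 55386086 exon reads each. Spleen 3 and 4, and vein wall 3 and 4, were far closer to each other than the other 16 replicate pairs (mean chi-square per gene 3.96 and 2.56 against 97 to 356) and were summed, which left 3 spleen, 4 thrombus and 3 vein wall samples. The labels also give each library an exp number from 1 to 4, equal to its replicate number and shared by the tissues, without saying what it marks. The files fall into 3 sets with different gene models: set 1 (spleen 1, thrombus 1), set 2 (spleen 2, thrombus 2, vein wall 1) and set 3 (the rest). Values are CPM, the exon reads of a gene per 1000000 exon reads of its sample, with sample sizes scaled by edgeR's trimmed-mean method. Markers of the sort were present in every sample, with a summed level of Foxp3, Cd4, Ptprc, Il2ra and Cd69 of 2250.9 to 3409.7 CPM. Cd69, a marker of the sort itself, had 253, 349 and 241 CPM in spleen, 407, 823, 519 and 606 in thrombus and 882, 641 and 745 in vein wall, with every spleen sample below the others. Relative to spleen, thrombus samples had a Cd69 log2 fold change of 1.07 ± 0.32 (SE) and vein wall samples one of 1.43 ± 0.34 (edgeR adjusted p = 0.574 and 0.215, or 0.0248 and 0.00882 with the file set as covariate). Thrombus 2 stood apart: its 6 macrophage and monocyte markers summed to 1619.9 CPM against 49.3 to 59.7 in the other thrombus samples, all 6 with reads in the series, and its 4 erythroid markers to 1466.7 CPM against 1.63 to 597.

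The summed CPM of the members came to 1.19% to 2.64% of a sample's scaled size. Scaling multiplied sample sizes by 0.858 in thrombus 2 to 1.19 in spleen 1, so this is no plain share of reads. This proteasome share was 1.74% ± 0.413 (SD, n = 3) in spleen, 1.71% ± 0.642 (SD, n = 4) in thrombus and 2.11% ± 0.13 (SD, n = 3) in vein wall. The lowest share was in thrombus 1 and the highest in thrombus 2, so that the thrombus samples spanned the range of all others. The share of intron reads among exon and intron reads moved with it: it was 14.2% to 18.8% in the 4 samples with the lowest proteasome share (thrombus 1, spleen 1, thrombus 4 and thrombus 3) and 8.85% (thrombus 2) to 13.2% in the other 6, all vein wall samples included. This was seen after the values were known, and its part in the levels was not tested. The 5 immunoproteasome and PA28 genes took 30.2% ± 1.22 (SD, n = 3) of the proteasome reads in spleen, 27.5% ± 1.35 (SD, n = 4) in thrombus and 29.1% ± 1.04 (SD, n = 3) in vein wall. In bulk samples, fewer cells with a transcript and less of it per cell cannot be told apart.

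Levels were compared between genes per kilobase of exon, with the exon lengths of set 2, as the median over 10 samples. By total exon reads, Psmb8, the inducible counterpart of Psmb5, had the highest level of all members, 1642.6 CPM per kilobase. The PA28 genes Psme2 and Psme1 followed with 1107.9 and 1024.3 CPM per kilobase, beside the structural beta subunit Psmb3 with 1094.1. By role, the median level was 330 CPM per kilobase for the 8 alpha genes and 699 for the 4 structural beta genes. It was 191 for the 6 ATPases of the 19S base, 94.1 for the 11 other 19S subunits, 93.7 for the 4 assembly chaperones of the 20S core (Psmg genes) and 67 for the 3 of the 19S base (Psmd5, Psmd9, Psmd10). By these medians the core stood above the cap, although single genes crossed: the core subunit Psmb7 was at 141, below the cap subunits Psmc5 at 286 and Psmd4 at 267. Lower still were Psmf1, the proteasome inhibitor PI31, at 27.5, and Psme4, the nuclear activator PA200, at 4.52. Exon length differs between the file sets by more than 10% for all but 10 members, so these levels depend on the gene model. They also rest on total exon reads. For Psmb8, Psme2 and Psmb3, a median of 56.7%, 64.3% and 60.2% of these matched more than 1 place, against 0% for Psme1. The order of the highest genes is therefore uncertain. Psma8 had 36 reads in thrombus 2, 2 in vein wall 3-4 and none in the other 8 samples, where a count of 0 allows up to 0.039 to 0.319 CPM. Psmb11 had 20 reads in all, at most 8 in a sample.

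No member was called different between tissues. In edgeR's quasi-likelihood test, 0 of 48 members passed an adjusted p of 0.05 in thrombus against spleen, in vein wall against spleen or in thrombus against vein wall, and 0 had an unadjusted p under 0.05 in any of the 3. DESeq2 called 0 members in each as well, with 0 at an unadjusted p under 0.05. Few genes of any kind were called: 0.146% of tested genes in thrombus against spleen, 0.112% in vein wall against spleen and 0% in thrombus against vein wall, where 338 genes had an unadjusted p under 0.05 and DESeq2 called 10. With the file set as covariate the shares were 0.456%, 0.413% and 0%. That fit called 0 members too, and 1 had an unadjusted p under 0.05: the 19S ATPase Psmc2 in thrombus against vein wall, with a log2 fold change of -0.57 ± 0.26 (SE) and an adjusted p of 0.998 (edgeR).

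The estimates limit how large a difference could have been. In thrombus against spleen, log2 fold changes of the 48 members ran from -0.47 to 0.46 with a median of 0.00, 25 above and 23 below 0, beside a median of 0.03 over all tested genes. For 33 of the 48, the 95% interval lay wholly within 1 log2 unit of 0. In vein wall against spleen they ran from -0.26 to 0.65 with a median of 0.23 (all tested genes -0.01), and 38 were above 0. Here 17 intervals lay within 1 log2 unit. The estimate was thus above 0 for most members in the vein wall, each with an interval that includes 0. The median was 0.07 without spleen 1 and 0.46 without spleen 2. Spleen 1 lies in set 1, which holds no vein wall sample. Some markers of other cells also separated vein wall from spleen: 4 B cell markers summed to 343 to 1259.9 CPM in vein wall and 104 to 287 in spleen, and 6 fibroblast markers to 10.3 to 60.1 and 0 to 0.455 CPM. The 4 erythroid markers went the other way, with 1.53 to 19.5 CPM in vein wall and 45.9 to 989 in spleen. Sums of dendritic, macrophage and monocyte, neutrophil, endothelial, smooth muscle, platelet, CD8 T and NK, and pancreas markers overlapped between these tissues. The part of other cells in the estimates was not tested. In thrombus against vein wall the range was -0.60 to 0.47 and the median -0.31 (all tested genes 0.04), with 43 below 0 and 19 intervals within 1 log2 unit. The 3 comparisons share samples, so they are not separate evidence. With the file set as covariate, the medians were -0.04, 0.16 and -0.22, and 41, 35 and 38 intervals lay within 1 log2 unit.

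**Figure D1:**
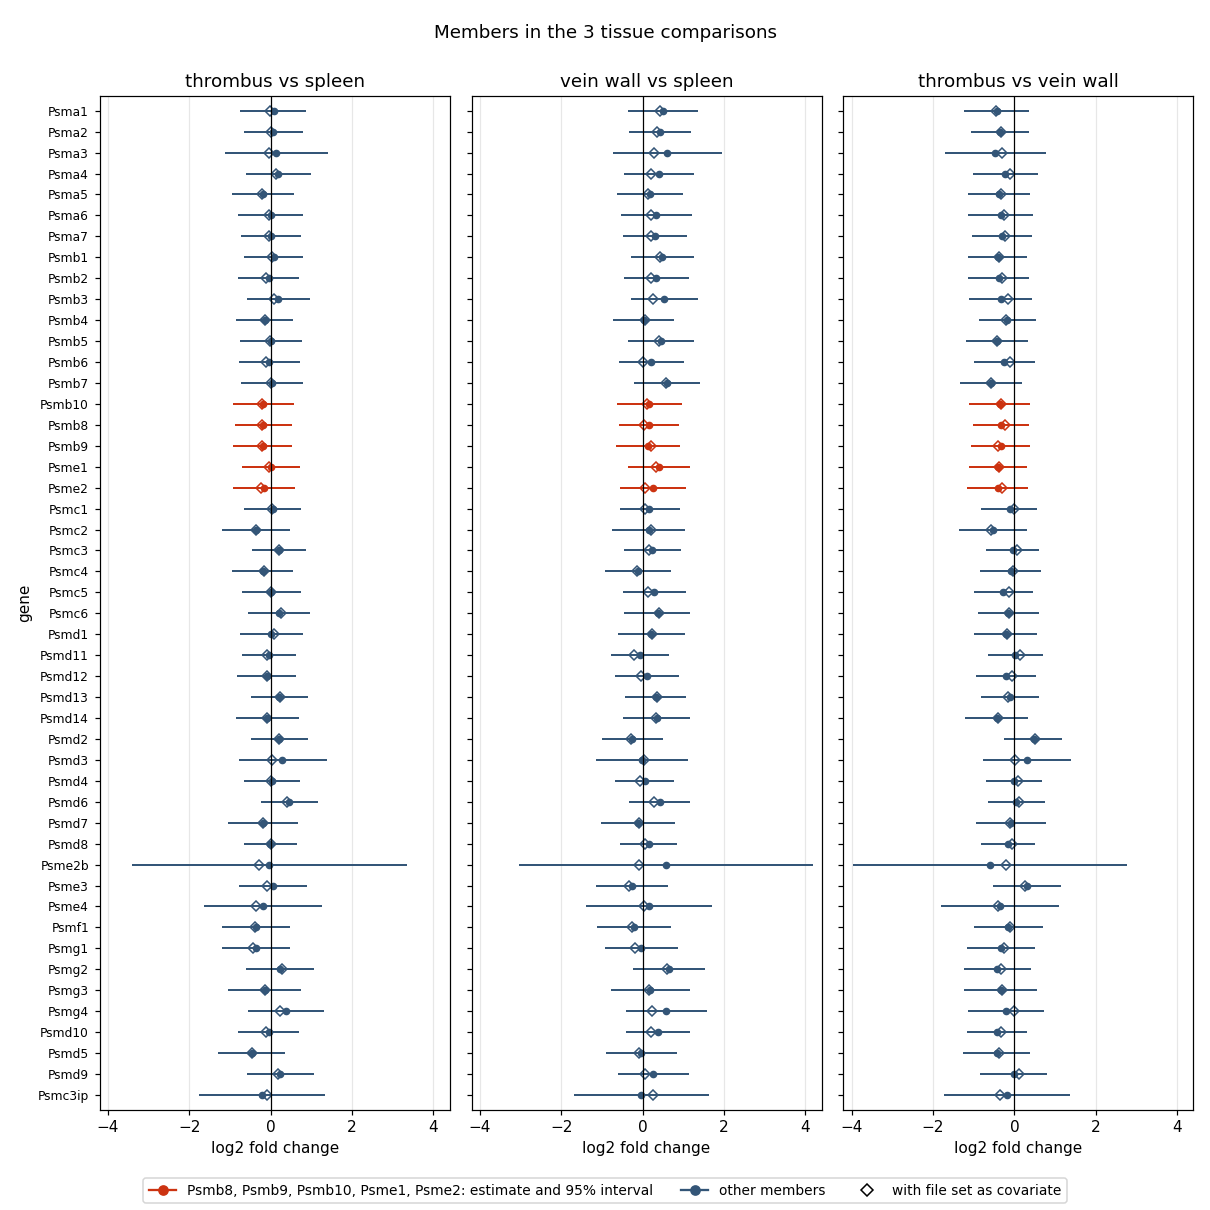
Log2 fold change (x axis) of each of the 48 tested members (y axis, ordered by role) in the 3 comparisons, with filled points and 95% intervals from edgeR and open diamonds for the fit with file set as covariate. All 48 intervals include 0 in each panel, and most points lie right of 0 in vein wall against spleen (38 of 48) and left of it in thrombus against vein wall (43 of 48).

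Groups seldom stood apart without overlap. In vein wall against spleen, 6 of 48 members (12.5%) had every vein wall sample above every spleen sample, beside 6.75% of all tested genes: the 20S subunits Psma2, Psma7, Psmb1, Psmb5 and Psmb7 and the 19S subunit Psmd6. These 6 were picked out by their values. None was lower without overlap, beside 6.52% of all genes. No member was separated in thrombus against spleen (2.5% of genes higher and 2.5% lower) or in thrombus against vein wall (2.34% higher and 1.49% lower).

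The inducible subunit Psmb8 (GRCm38 chromosome 17, 34197721 to 34201454, plus strand) measured 1387.2, 2247.6 and 2044.3 CPM in spleen samples 1, 2 and 3-4. It measured 1171.6, 2553.0, 1693.7 and 1272.3 CPM in thrombus samples 1 to 4, and 2293.0, 2023.4 and 1994.4 CPM in vein wall samples 1, 2 and 3-4. The thrombus held both the lowest and the highest sample, and the groups overlapped. The log2 fold change was -0.18 ± 0.32 (SE) in thrombus against spleen (edgeR adjusted p = 0.9998) and 0.15 ± 0.34 in vein wall against spleen (adjusted p = 0.985).

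Psmb9, which replaces Psmb6, lies close by on chromosome 17 (34181988 to 34187764, minus strand). Spleen samples had 538, 694 and 552 CPM, thrombus samples 463, 888, 395 and 328 CPM, and vein wall samples 696, 661 and 609 CPM. Apart from thrombus 2, every thrombus sample was below every spleen and vein wall sample. The log2 fold change in thrombus against spleen was -0.20 ± 0.34 (SE; edgeR adjusted p = 0.9998). Psmb10, which replaces Psmb7 (chromosome 8, 105935735 to 105938444, minus strand), had 282, 398 and 360 CPM in spleen, 234, 512, 294 and 180 CPM in thrombus and 424, 348 and 397 CPM in vein wall. Its groups overlapped too, and its log2 fold change in thrombus against spleen was -0.19 ± 0.35 (SE; edgeR adjusted p = 0.9998).

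The PA28 genes lie near each other on chromosome 14. Psme1 (55578123 to 55581529, plus strand) had 868, 1112.7 and 914 CPM in spleen, 666, 1592.0, 745 and 869 CPM in thrombus and 1449.1, 1289.3 and 1087.2 CPM in vein wall. Psme2 (55587441 to 55591113, minus strand) had 987, 1693.2 and 1610.0 CPM in spleen, 728, 2147.3, 1287.1 and 975 CPM in thrombus and 1525.5, 1710.6 and 1898.5 CPM in vein wall. Both were lowest in thrombus 1 and highest in thrombus 2. Over the 5 immunoproteasome and PA28 genes the median log2 fold change was -0.18 in thrombus against spleen, 0.17 in vein wall against spleen and -0.35 in thrombus against vein wall. The other 43 tested members gave 0.01, 0.24 and -0.25, and the 5 genes lay inside their ranges in every comparison.

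**Figure D2:**
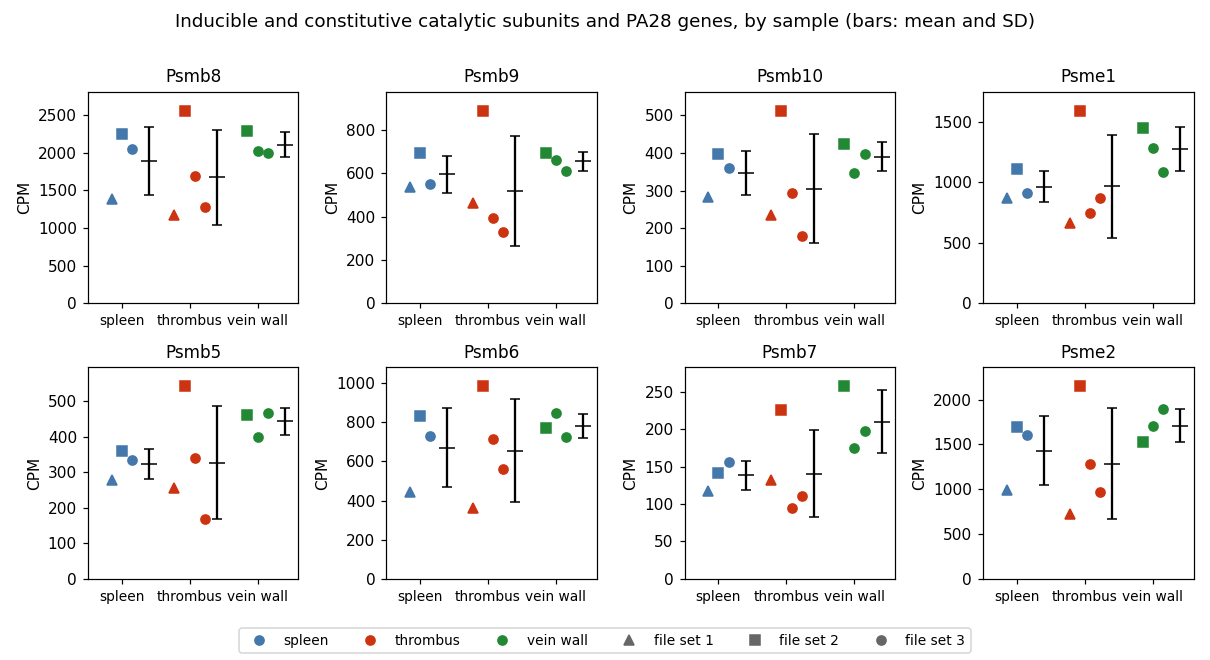
CPM (y axis, from 0) of the inducible catalytic subunits, their constitutive counterparts and the PA28 genes in each of the 10 samples, coloured by tissue and shaped by file set, with black bars for mean and SD. Thrombus 2, the red square, is the highest sample for 7 of these 8 genes, and vein wall 1 is highest for Psmb7.

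The constitutive subunits measured less per sample than Psmb8 throughout. Psmb5 had 278, 359 and 336 CPM in spleen, 256, 542, 341 and 170 CPM in thrombus and 462, 400 and 468 CPM in vein wall, all 3 vein wall samples above the spleen samples. Psmb6 had 445, 832 and 730 CPM in spleen, 364, 982, 713 and 561 CPM in thrombus and 769, 845 and 725 CPM in vein wall, with overlap between all groups. Psmb7 had 117, 142 and 156 CPM in spleen, 132, 225, 94.7 and 111 CPM in thrombus and 257, 175 and 198 CPM in vein wall. Psmb7 had the smallest p of all members in both comparisons with the vein wall. Its log2 fold change was 0.61 ± 0.37 (SE; edgeR adjusted p = 0.959) in vein wall against spleen and -0.58 ± 0.35 (adjusted p = 0.999) in thrombus against vein wall.

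Promoters were searched for 2 motifs on both strands, from 250 bases before to 50 after the RefSeq start (GRCm38.p6), in the 42 members listed there. The core of the antioxidant response element, TGACNNNGC, bound by the factors Nfe2l1 and Nfe2l2 that are known to drive proteasome genes, was in 6 of 42 (14.3%), against 14% of 27025 genes. The 6 were Psmb5, Psmb6, Psmd9, Psmd12, Psmc6 and Psme4. The core of the interferon-stimulated response element, TTTC on either side of 2 bases of any kind, was in 5 of 42 (11.9%), namely Psmd4, Psmd9, Psmb3, Psmg4 and Psme1, against 3.99% of genes. Neither string was in the windows of Psmb8, Psmb9 and Psmb10, but these lie wholly or in part inside the bounds of the deposited gene models, which start further upstream. Psmb7 was not listed. A match is a description of letters only. The 120 bases before the start of the constitutive subunits Psmb5 and Psmb6 are shown for their match close to the start, in capitals, read 5′ to 3′ on the strand of the gene, at chr14:54617996-54618115 (minus strand) and chr11:70525237-70525356 (plus strand):
Psmb5: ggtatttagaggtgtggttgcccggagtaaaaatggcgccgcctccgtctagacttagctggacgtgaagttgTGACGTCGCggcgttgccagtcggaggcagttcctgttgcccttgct
Psmb6: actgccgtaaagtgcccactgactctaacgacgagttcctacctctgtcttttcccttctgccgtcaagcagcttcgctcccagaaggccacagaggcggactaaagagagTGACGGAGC
The match ends 39 bases before the RefSeq start in Psmb5 and 1 base before it in Psmb6, and these genes showed no called change between tissues. The deposited model of Psmb5 also starts further upstream, at 54618022, inside the printed stretch.

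The balance between inducible and constitutive subunits was read as the ratio of their CPM per kilobase in each sample. Psmb8 exceeded Psmb5 in all 10 samples, by 3.56, 4.46 and 4.33 times in spleen, 3.26, 3.35, 3.54 and 5.33 times in thrombus and 3.54, 3.6 and 3.03 times in vein wall. Psmb10 exceeded Psmb7 in all 10 as well, by 1.1 to 2.11 times. Psmb9 stood at 0.542 to 1.24 times Psmb6 and above it in 2 samples, spleen 1 and thrombus 1, both of set 1. The excess of Psmb8 over Psmb5 remained in all 10 samples with unique reads alone (1.34 to 4.75 times) or with the exon lengths of each library's own file (1.46 to 4.46 times). The excess of Psmb10 over Psmb7 remained in all 10 with own lengths (1.12 to 4.84 times) but not with unique reads, where it was 0.663 to 2.21 times and above 1 in 4 samples. Psmb9 was above Psmb6 in 2 samples with unique reads (0.541 to 1.26 times) but in 0 with own lengths (0.263 to 0.885 times).

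No ratio passed 0.05 between tissues in exact two-sided permutation tests of the log2 ratio over samples, 3 ratios in 3 comparisons, with adjusted p from 0.808 to 0.9 over the 9 tests. The smallest p these tests can give is 0.1 for 3 against 3 samples and 0.0571 for 4 against 3, so none could pass 0.05. The log2 ratio of Psmb10 to Psmb7 was 0.35 ± 0.16 (SD, n = 3) in vein wall and 0.77 ± 0.15 (SD, n = 3) in spleen, with all vein wall samples below all spleen samples (exact permutation p = 0.1, adjusted p = 0.808). In thrombus it was 0.53 ± 0.42 (SD, n = 4) and spanned both. For Psmb8 to Psmb5 the log2 ratios were 2.03 ± 0.18 (SD, n = 3) in spleen, 1.92 ± 0.33 (SD, n = 4) in thrombus and 1.76 ± 0.14 (SD, n = 3) in vein wall. For Psmb9 to Psmb6 they were -0.16 ± 0.36, -0.39 ± 0.57 and -0.28 ± 0.11, in the same order.

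**Figure D3:**
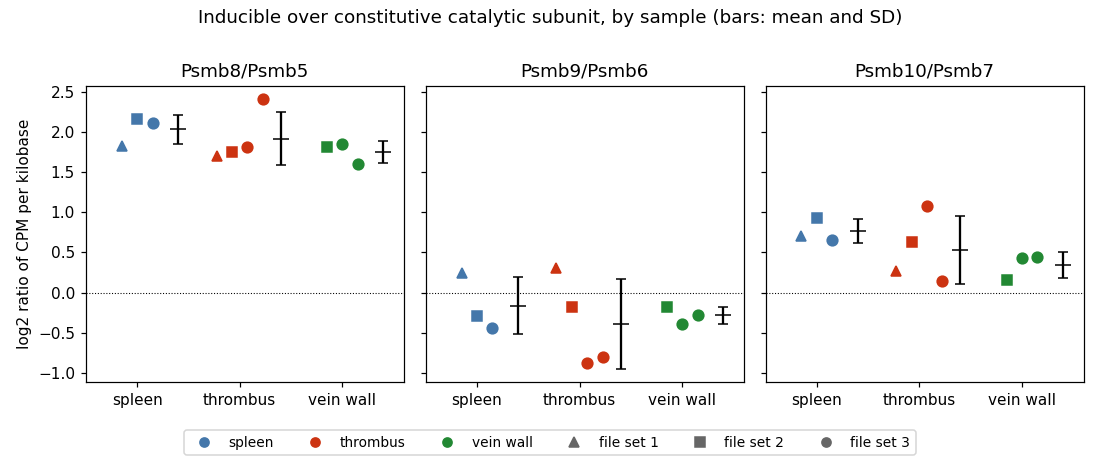
Log2 ratio of CPM per kilobase (y axis) of each inducible catalytic subunit to its constitutive counterpart in the 10 samples, by tissue (colour) and file set (shape), with black bars for mean and SD and a dotted line at equal levels. With the exon lengths of set 2, as drawn, Psmb8/Psmb5 lies above 0 in every sample, from 1.60 to 2.41. Psmb9/Psmb6 is above 0 only in spleen 1 and thrombus 1, and in no sample with each file's own exon lengths.

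The other members with the largest fold changes were cap and assembly genes, the alpha subunit Psma3 and Psme2b. Psmd6, a subunit of the 19S lid, had 160, 177 and 150 CPM in spleen, 137, 297, 247 and 214 CPM in thrombus and 196, 245 and 209 CPM in vein wall. It gave the smallest p in thrombus against spleen, with a log2 fold change of 0.46 ± 0.33 (SE; edgeR adjusted p = 0.9998), and 3 of 4 thrombus samples were above all spleen samples. Psmd5, a chaperone that helps to build the 19S base, had 120, 154 and 167 CPM in spleen, 105, 80.3, 162 and 78.3 CPM in thrombus and 183, 174 and 75.8 CPM in vein wall. In thrombus against spleen its log2 fold change was -0.47 ± 0.38 (SE; edgeR adjusted p = 0.9998), and thrombus 3 lay among the spleen samples. The ATPase Psmc2 had 224, 491 and 297 CPM in spleen, 226, 474, 186 and 157 CPM in thrombus and 433, 386 and 306 CPM in vein wall. Its log2 fold change was -0.37 ± 0.39 (SE) in thrombus against spleen and -0.52 ± 0.39 in thrombus against vein wall (edgeR adjusted p = 0.999). Thrombus 2 alone among the thrombus samples lay above all vein wall samples.

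Psmg2, a chaperone of alpha ring assembly, had the largest log2 fold change in vein wall against spleen, 0.65 ± 0.41 (SE; edgeR adjusted p = 0.959). Its values were 67.7, 136 and 72 CPM in spleen, 74.8, 166, 86.1 and 105 CPM in thrombus and 183, 128 and 121 CPM in vein wall. Spleen 2 lay within the vein wall range, and the other 2 spleen samples below it. The alpha subunit Psma3 had 262, 1129.1 and 724 CPM in spleen, 198, 1518.2, 715 and 683 CPM in thrombus and 1142.8, 1056.3 and 1037.9 CPM in vein wall. Its values in set 1, spleen 1 and thrombus 1, were the lowest of all samples, and its fold change in vein wall against spleen was 0.61 ± 0.61 (SE) on the log2 scale, or 0.28 ± 0.25 with the file set as covariate. Psme2b, a near copy of Psme2 on chromosome 11, had 6 and 5 reads in the set 1 samples, spleen 1 and thrombus 1, and 397 to 4745 reads in the other 8. Its log2 fold change of -0.60 ± 1.45 (SE) in thrombus against vein wall was -0.21 ± 0.43 with the covariate.

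Differences between samples followed the file set more than the tissue. For the median member, file set accounted for a share of 0.615 of the variance of log2 CPM over the 10 samples and tissue for 0.18, beside 0.335 and 0.177 over all tested genes. Set was the larger in 44 of 48 members. Thrombus 2 was the highest sample for 27 members and thrombus 1 the lowest for 20. The median member deviated from its own mean by 0.58 log2 units in thrombus 2 and by -0.48 in thrombus 1. The labels do not name the file sets. Gene models and other differences between the samples of the sets cannot be told apart as sources of a set's level.

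Within a set, the thrombus was not on 1 side of the spleen. The median member differed by -0.12 log2 units (thrombus minus spleen) in set 1 and by -0.21 in set 3, but by 0.28 in set 2. All 5 immunoproteasome and PA28 genes were lower in thrombus in sets 1 and 3 (medians -0.27 and -0.52) and all 5 higher in set 2 (median 0.36). Sets 1 and 2 hold 1 sample per tissue and set 3 holds 1 spleen sample, and these differences were not tested. Vein wall minus spleen was 0.03 in set 2 and 0.19 in set 3 for the median member. Without thrombus 2, which had the highest macrophage and erythroid sums of the 10 samples, the median member was -0.29 in thrombus against spleen and -0.57 in thrombus against vein wall, and the 5 genes were -0.51 and -0.74. In both comparisons these were the lowest values among the 10 fits without a covariate that left out 1 sample. The highest were 0.16 (without spleen 2) and -0.15 (without thrombus 1) for the median member. For the 5 genes they were -0.01 (without spleen 2) and -0.22 (without thrombus 4). Without thrombus 2, 0 members were called in edgeR, with 3 of 48 in thrombus against spleen and 16 of 48 in thrombus against vein wall at an unadjusted p under 0.05 (2 and 15 with the file set as covariate). These counts are given without the share over all tested genes, and many members move together over samples, so the counts do not set the members apart. The smallest adjusted p in thrombus against vein wall was 0.634 without thrombus 2 (edgeR), and 0.747 with the covariate. The part that other cells in thrombus 2 had in its levels was not tested.

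**Figure D4:**
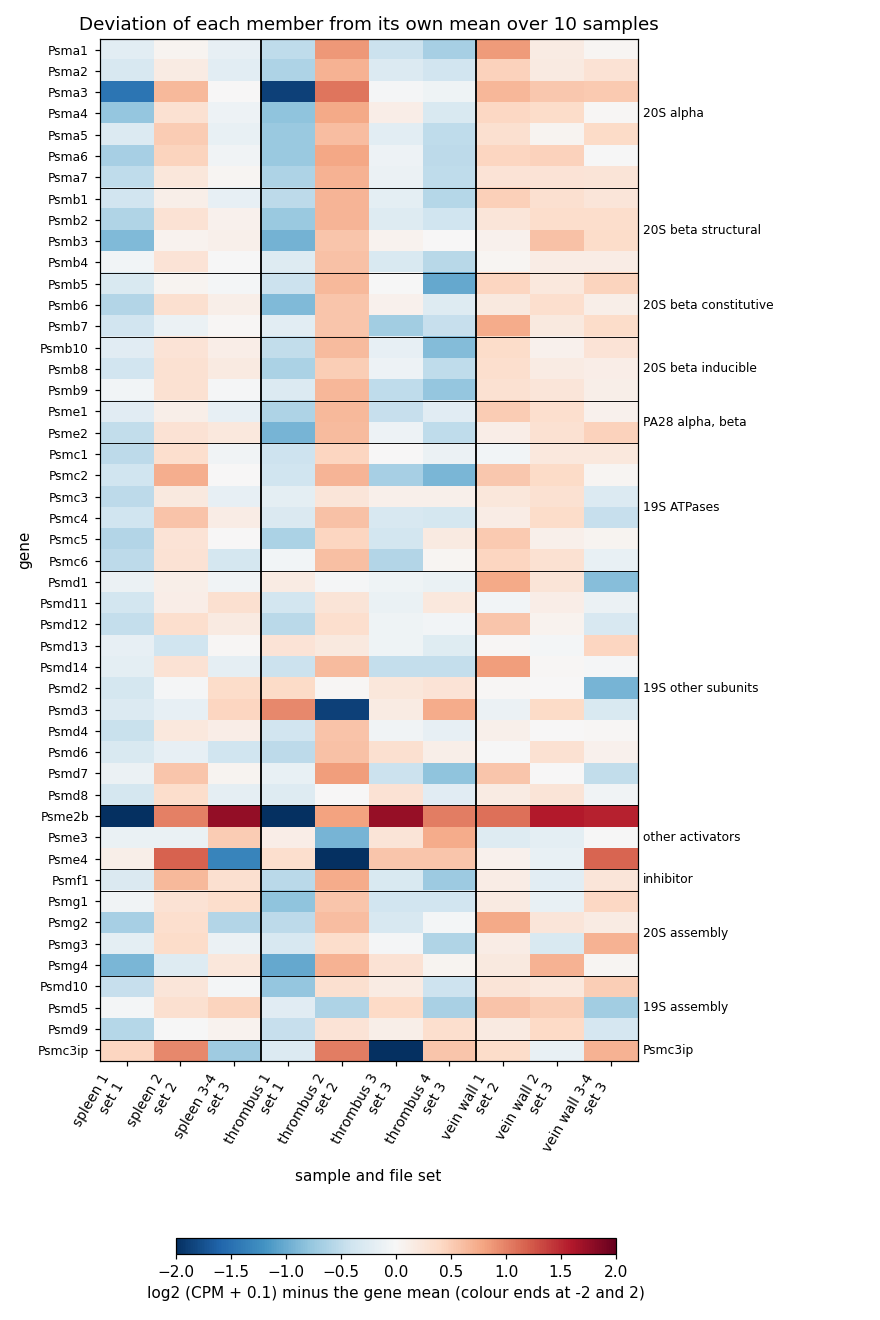
Deviation of log2 (CPM + 0.1) from the gene's own mean over the 10 samples for the 48 tested members (rows, by role), in columns by tissue with the file set named. All 14 core subunits are above their mean in thrombus 2 and below it in thrombus 1, whereas Psmd3, Psme3 and Psme4 are lowest in thrombus 2.

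Core subunits moved together over samples, and cap subunits less so. The mean pairwise Pearson correlation of log2 CPM over 10 samples was 0.82 among the 14 constitutive 20S genes and 0.85 among the 5 immunoproteasome and PA28 genes, and 0.78 and 0.82 after the mean of each file set was subtracted. It was 0.33 among 17 subunits of 19S and 0.39 among 7 assembly factors, falling to 0.14 and 0.04, beside 0.00 among all tested genes. The samples share libraries' normalization and file sets, so these are descriptions. Immunoproteasome genes moved with the constitutive core: the correlation with the mean of the 14 core genes was 0.96 for Psmb8, 0.81 for Psmb9, 0.89 for Psmb10, 0.92 for Psme1 and 0.95 for Psme2. It was below 0 for 4 members: the 19S subunit Psmd3 (-0.70), the nuclear activator PA28 gamma, Psme3 (-0.67), Psme4 (-0.38) and the 19S scaffold subunit Psmd2 (-0.29).

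Psmd3 had 55.5, 59.9 and 90.6 CPM in spleen, 131, 18.3, 75.1 and 112 CPM in thrombus and 61.8, 87.7 and 54.4 CPM in vein wall. Psme3 had 84, 83.7 and 130 CPM in spleen, 101, 48.3, 110 and 153 CPM in thrombus and 77.1, 79.8 and 91.5 CPM in vein wall. Both were lowest in thrombus 2, where the core was highest. Exon length moved with this pattern: across the 48 members, Spearman's rho between exon length and a sample's deviation was -0.42 in thrombus 2 and 0.47 in thrombus 1, beside -0.19 and 0.23 across 11618 genes. It was -0.44 in vein wall 3-4, beside 0.01 across all genes. Genes are not independent replicates, this comparison was made after the values were seen, and the part of length in the pattern was not tested.

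Many proteasome genes have processed copies elsewhere in the genome. Total exon reads include reads that match more than 1 place, and the source of a member's multi-match reads was not tested. Of 49 members with at least 10 reads in a library, 35 had a median of under 5% such reads, 7 had 5% to 50% and 7 had 50% or more. The last 7 were Psme2b (100%), Psma3 (88.4%), Psmg3 (81.4%), Psme2 (64.3%), Psmb3 (60.2%), Psmb10 (57.6%) and Psmb8 (56.7%). Their levels are uncertain where the counting could split or double such reads. Psmb8 and Psmb10 had 56.4% and 56.8% multi-match reads in set 1 and 57.7% and 58.4% in set 3, but 0% in set 2. Psmb5 had 50.9% in set 1 and 6.01% and 5.4% in sets 2 and 3. For Psmb8, Psmb10 and Psmb5 the share thus differed between file sets.

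**Figure D5:**
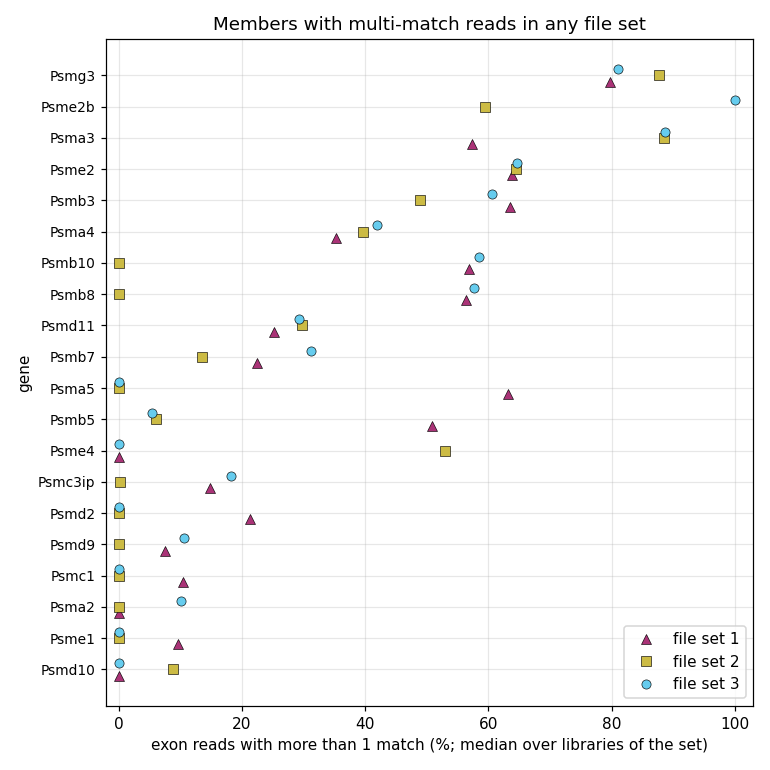
Share of exon reads with more than 1 match (x axis, percent, median over the libraries of a file set) for the 20 members that reach 5% in any set (y axis). Psmb8 and Psmb10 sit near 57% in sets 1 and 3 and at 0 in set 2, whereas Psme2 and Psmg3 are high in all 3 sets.

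Partners of the proteasome outside the Psm names were read from 27 tested genes of assembly, shuttling, ubiquitin supply and regulation. Of these 0 were called in any comparison by edgeR or DESeq2. In edgeR 0, 0 and 1 had an unadjusted p under 0.05, beside 483, 633 and 338 of 11618 tested genes. Their median log2 fold changes were 0.04, -0.03 and 0.06, beside 0.03, -0.01 and 0.04 over all tested genes. Pomp, the maturation factor of the core, had 292, 728 and 445 CPM in spleen, 262, 837, 480 and 435 CPM in thrombus and 569, 654 and 603 CPM in vein wall, with the same low set 1 and high thrombus 2 as the core genes. The largest fold changes were those of the shuttle factor Ubqln2, with log2 fold changes of -1.15 ± 0.74 (SE) in thrombus against spleen and -1.83 ± 0.74 in thrombus against vein wall (edgeR adjusted p = 0.999). Next in thrombus against spleen were the proteasome-binding zinc finger protein Zfand5 (-1.04) and the shuttle factor Ubqln1 (-0.66), and in thrombus against vein wall the ubiquitin ligase Ube3c (-1.13) and the protease Ddi2, which activates Nfe2l1 (0.87, or -0.44 with the file set as covariate). In vein wall against spleen they were Ddi2 (-1.11, or 0.31 with the covariate), the nuclear import adaptor Akirin2 (-1.01) and the Vcp cofactor Nploc4 (-0.99).

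Antigen presentation by MHC class I and the interferon response, to which the immunoproteasome belongs, were read from 20 genes, of which 0 were called by edgeR or DESeq2. In edgeR 0, 2 and 2 had an unadjusted p under 0.05, beside 483, 633 and 338 of 11618 tested genes. With the file set as covariate these were 0, 3 and 4, beside 794, 908 and 480. The smallest adjusted p of the 20 genes was 0.813 (edgeR without the covariate). The median log2 fold change was -0.05 in thrombus against spleen, -0.28 in vein wall against spleen and 0.04 in thrombus against vein wall. The interferon signal transducer Stat2 (-1.51 ± 0.61, SE) and the interferon-induced gene Ifit3 (-1.49 ± 0.76) had the largest in vein wall against spleen, with Isg15, a ubiquitin-like protein, at 0.99 ± 0.46. In thrombus against vein wall these were Stat2 (1.53 ± 0.58), Ifit3 (1.18 ± 0.72) and the peptide transporter subunit Tap2 (0.98 ± 0.36). In thrombus against spleen they were the peptide loading factor Tapbp (0.68 ± 0.53), Isg15 (0.58 ± 0.43) and the interferon factor Irf9 (-0.56 ± 0.36). Tap1, the other transporter subunit, starts 226 bases from the RefSeq start of Psmb9 on the opposite strand, inside the bounds of the deposited Psmb9 model, so that reads from the shared stretch cannot be assigned by strand. It had 307, 156 and 269 CPM in spleen, 274, 90.7, 226 and 248 CPM in thrombus and 192, 189 and 168 CPM in vein wall, so that the sample with the highest Psmb9, thrombus 2, had the lowest Tap1.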

How the data were processed

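For RNA sequencing of the sorted CD69+ Treg, 2 ng of RNA per library entered a SMART-Seq v4 kit with 12 cycles of amplification, and 1 ng of the cDNA a Nextera XT preparation, per the labels' protocols. These libraries mark no strand and carry no molecular identifiers, so floors cover counting error only. The deposited files hold counts of total and unique exon reads per gene, with the build GRCm38 named in the submitters' processing notes. Aligner and counter: not given in the sources used here.

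Sets 1 and 3 were joined on gene ID (21899 genes) and set 2 by name and overlap, which gave 20725 genes with 91.8% to 95.9% of exon reads. Counts of the 10 samples were tested with edgeR 4.0.16 (R 4.3.3): quasi-likelihood F tests, trimmed-mean scaling, the default low-count filter, tissue as the factor, 1 estimate of spread and Benjamini-Hochberg adjustment over 11618 genes, called under 0.05. Alternatives were DESeq2 1.42.0, its size factors, no filter, unique reads, file set as covariate, 12 separate libraries with and without a replicate block, and each sample left out. The script was tested on simulated data. Values in every sample are given for the catalytic and PA28 genes and, per comparison, the 3 members with the largest fold change and the one with the smallest p; Psmd3, Psme3, Pomp and Tap1 were added after their values were seen. From the other lists, the 3 genes with the largest fold change per comparison are named. Members and lists were chosen with earlier results of these data known. Promoter windows are RefSeq's.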

Additional observations from a re-analysis of the deposited data

Results flagged for a closer look

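In thrombus 4 the log2 ratio of Psmb8 to Psmb5 was 2.41, apart from the other 3 thrombus samples at 1.70, 1.75 and 1.82. The gap exceeded Dixon's 95% critical value for 4 samples. Of 17 values examined in this way in the thrombus samples, 1 stood apart, and chance gives about 1 in 20.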

How the results depend on the processing

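In 29 alternative fits, 0 members were called in any comparison, as in the reported fit. Over all genes, the counts called in thrombus against spleen, vein wall against spleen and thrombus against vein wall were 17, 13 and 0 as reported, 53, 48 and 0 with the file set as covariate, 35, 51 and 0 with 12 separate libraries, 80, 66 and 2 without the filter and 105, 122 and 10 in DESeq2. Leaving out 1 sample gave 6 (without spleen 2) to 34 (without spleen 1) in the first and 5 to 26, for the same samples, in the second. Leaving out 1 sample moved the median of the 5 immunoproteasome and PA28 genes in thrombus against vein wall from -0.35 to between -0.74 (without thrombus 2) and -0.22, or up to -0.13 (without thrombus 4) with the covariate. The cause was not tested. In vein wall against spleen, Psmb8/Psmb5 moved from -0.28 on the log2 scale to -0.60 with unique reads and -0.03 with each file's own exon lengths, Psmb10/Psmb7 from -0.42 to -0.81 with own lengths, and Psmb9/Psmb6 from -0.12 to 0.16 centred on file sets and 0.19 in a regression with the set as covariate. The own lengths, that regression, and the covariate fits with unique reads or with 1 sample left out were added after the data were seen.

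The labels' exp number, which is also the replicate number, was not used as a pairing, by a rule that every pair exceed 0.1. Same-numbered deviations correlated at 0.40, 0.26, 0.16 and 0.09 between spleen and thrombus and at -0.07 to 0.19 elsewhere. Vein wall 1 and 2 lie in other file sets than their same-numbered spleen and thrombus samples. These correlations therefore cannot show whether the numbers pair samples. With the 12 libraries and a replicate block, 0 members and 52, 65 and 0 of all genes were called, 0, 3 and 4 members had an unadjusted p under 0.05 (smallest adjusted p 0.28, edgeR), and the medians over members were -0.06, 0.29 and -0.36. The counts at an unadjusted p stand without a share over all genes, so they do not set the members apart.

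The 14 members with values in every sample gave 1182 log2 fold changes under alternatives, of which 108 had the opposite sign from the reported one, none of them called. In thrombus against spleen, with the file set as covariate, Psma3 was -0.03, Psmb5 -0.02, Psmb7 0.00 and Psme1 -0.04. With unique reads Psma3 was -0.05, and with both changes Psma3 was -0.04, Psmb5 -0.03 and Psme1 -0.03. With the replicate block Psmb5 was -0.07, Psmb7 -0.06 and Psme1 -0.03, and without the block Psmb7 was 0.00 over 12 libraries. Without the filter Psmb5 and Psme1 were -0.01. With DESeq2's size factors Psmb6 was 0.02 and Psme2b 0.03, and in DESeq2 itself 0.02 and 0.04. In vein wall against spleen Psme2b was -0.09 with the covariate, -0.07 with unique reads and -0.61 with both. In thrombus against vein wall Psmd6 was -0.02 without the filter. With 1 sample left out, with or without the covariate, the ranges in thrombus against spleen were -0.39 to 0.69 for Psma3, -0.55 to 0.00 for Psmb10, -0.34 to 0.23 for Psmb5, -0.29 to 0.18 for Psmb6, -0.29 to 0.33 for Psmb7, -0.83 to 0.02 for Psmc2, -0.34 to 0.15 for Psme1, -0.53 to 0.04 for Psme2, -0.64 to 0.79 for Psme2b and -0.04 to 0.66 for Psmg2. In vein wall against spleen they were -0.02 to 0.31 for Psmb10, -0.10 to 0.44 for Psmb6, -0.06 to 0.33 for Psmb8, -0.08 to 0.56 for Psmc2, -0.44 to 0.28 for Psmd5, -0.07 to 0.43 for Psme2 and -0.14 to 1.40 for Psme2b. In thrombus against vein wall they were -0.51 to 0.01 for Psmb6 and -0.12 to 0.23 for Psmd6. The causes were not tested.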
